A study of Mus musculus with 8 samples.

Results

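A group of 43 interferon-stimulated and antigen presentation genes was followed through 8 maps of open chromatin from mouse leukaemia cells. The group was taken from a list of gene symbols, and it was set beside the 21887 protein-coding genes of the RefSeq table. A peak was counted for a gene where its summit lay in the gene body or within 10 kb of it on the mm10 build. Peaks sharing 1 bp or more, from any of the 8 libraries, formed 1 merged region, and 80 of 32730 regions belonged to the 43 genes.

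The assay was ATAC-seq, which uses a transposase to cut and tag accessible DNA, so that a peak marks an open stretch of chromatin. The cells were GFP+ MLL-AF9 acute myeloid leukaemia cells from bone marrow of leukaemic mice, labelled with the strain C57BL/7, and they carried TetO-Klf4, a doxycycline-inducible construct of the transcription factor Klf4. The groups were 0h, 6h, 12h and 24h with 2 libraries each, and every group shared the MLL-AF9 fusion and the TetO-Klf4 construct. No label tells if both libraries of a time came from separate mice, or if doxycycline was given to the 0h cells. The spread between libraries may therefore be technical.

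Type I interferons act through a complex with STAT2 and IRF9 that binds an interferon-stimulated response element (ISRE), and interferon gamma acts on a gamma-activated site (GAS). The genes switched on in this way sense viral RNA, block viral replication, attract lymphocytes and load peptides on MHC molecules. Blood cells express MHC class I widely, whereas MHC class II depends on the coactivator CIITA and is found mainly in cells specialised for antigen presentation.

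The start windows that carry an ISRE are shown first, because many of these genes carry this element and because the chromatin around it differed from gene to gene. RefSeq windows (GRCm38.p6) run from 250 bases before to 50 bases after a start, and 35 of the 43 genes had one. Positions count the first transcribed base as 0, and negative positions lie before it. Each sequence is read 5′ to 3′ on the strand of its gene, with the ISRE letters in capitals (a pair of GAAA separated by any 2 bases or, read from the other strand, a pair of TTTC). Stat2 (chr10:128270256-128270305, plus strand), B2m (chr2:122147528-122147577, plus strand) and Bst2 (chr8:71537567-71537622, minus strand) had a peak over the start in all 8 libraries.
Stat2: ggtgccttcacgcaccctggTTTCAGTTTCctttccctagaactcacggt
B2m: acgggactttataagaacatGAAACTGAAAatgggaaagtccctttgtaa
Bst2: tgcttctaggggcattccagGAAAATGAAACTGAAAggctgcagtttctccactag

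For comparison, 6 of the 9 genes with the same kind of element and no peak over the start in any library are shown, and the others are Ddx58, Gbp3 and Ifitm3. The 6 are Isg15 (chr4:156200855-156200916, minus strand), Ifit1 (chr19:34640765-34640833, plus strand), Ifit3 (chr19:34583353-34583436, plus strand), Rsad2 (chr12:26456543-26456592, minus strand), Oas3 (chr5:120777705-120777754, minus strand) and Cxcl10 (chr5:92349073-92349122, minus strand).
Isg15: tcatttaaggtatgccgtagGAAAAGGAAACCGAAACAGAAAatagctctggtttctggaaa
Ifit1: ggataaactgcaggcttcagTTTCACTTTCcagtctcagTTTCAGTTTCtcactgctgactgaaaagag
Ifit3: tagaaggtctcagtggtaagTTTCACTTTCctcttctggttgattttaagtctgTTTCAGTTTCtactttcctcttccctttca
Rsad2: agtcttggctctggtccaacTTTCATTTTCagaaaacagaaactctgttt
Oas3: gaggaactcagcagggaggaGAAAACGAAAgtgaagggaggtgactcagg
Cxcl10: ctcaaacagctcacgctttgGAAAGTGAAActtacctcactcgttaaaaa

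The Isg15 stretch held 3 overlapping matches, from position -78, and the Bst2 stretch held 2, from position -130. Ifit1 and Ifit3 each held 2 separate matches. Among all 35 genes with a window, 16 (45.7%) held ISRE letters on either strand, against 3.94% of 17492 genes with a window. GAS letters (TTCNNNGAA, the same on both strands) stood in 8 of the 35 genes (22.9%), against 8.92% of all genes. A Klf-type motif (GGGNGNGGC, or GCCNCNCCC on the other strand), whose letters also match the GC boxes bound by the SP family, stood in 11 of the 35 genes (31.4%), against 35.0% of all genes. The 3 motifs were searched separately and may overlap. A match describes letters in the window and is not a measured binding site.

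Not all of the 43 genes had open chromatin nearby. In all 8 libraries 20 genes (46.5%) had at least 1 peak within 10 kb, against 48.8% of protein-coding genes. Another 18 genes had a peak in 1 to 7 libraries, and 5 had none in any, namely Ciita, Oasl2, Ifit3, Ifitm1 and H2-Aa. Peaks in no library were found for 31.2% of protein-coding genes. Of the 80 regions, 19 (23.8%) were called in all 8 libraries, against 28% of all regions. In 1 library only, 31 of the 80 (38.8%) were called, against 27.9% of all regions.

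The roles differed in how many members had a peak in every library. All 9 genes of the class I pathway did, and so did 4 of 5 regulators, 5 of 16 antiviral effectors and 2 of 8 RNA sensors and editors. Neither of the 2 chemokines and none of the 3 class II genes did. These counts are a description of the list and were not tested between roles. A region can be counted for several genes. Tap2 had its only region in all 8 libraries outside the gene, at the 5′ end of Psmb8.

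**Figure D1:**
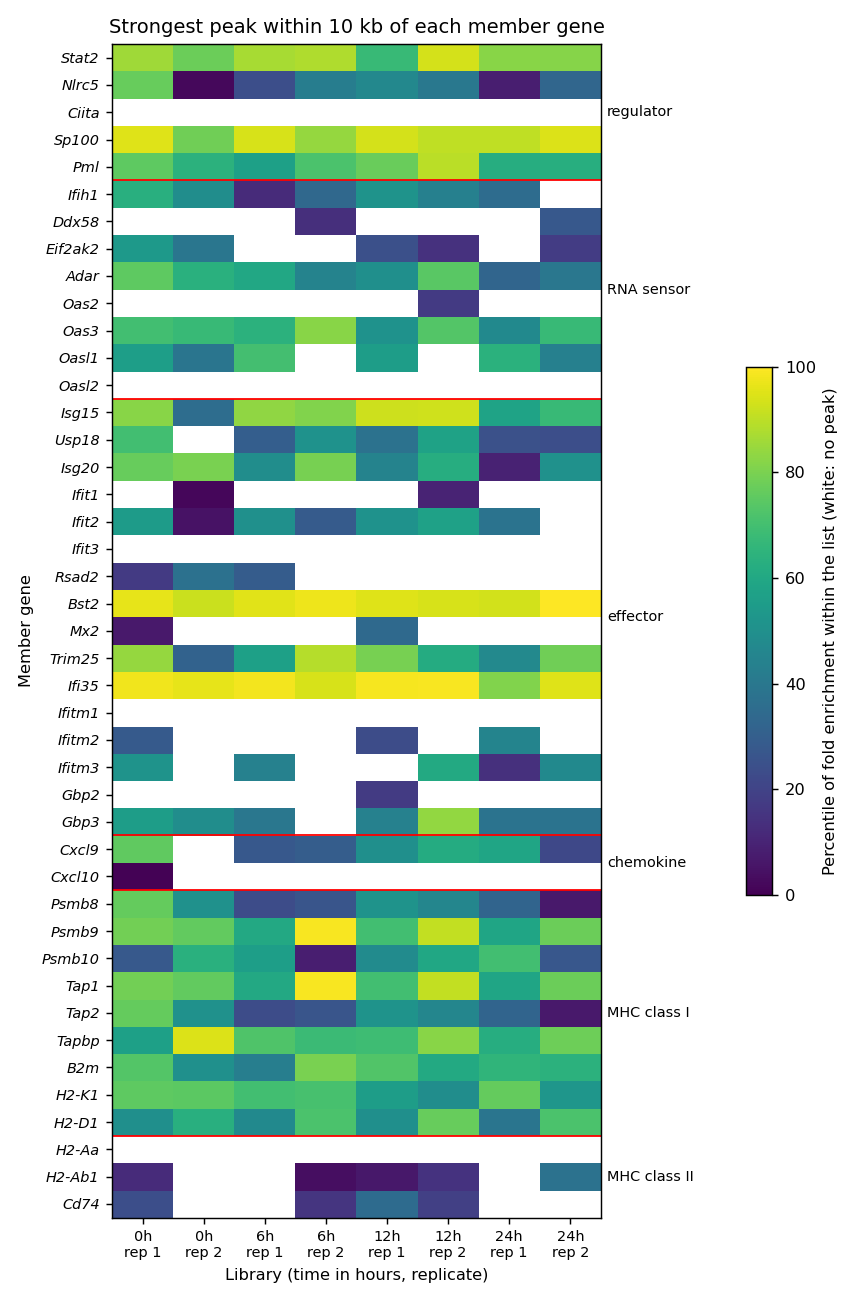
Colour gives the percentile of fold enrichment, within each library's own list, of the strongest peak in or within 10 kb of each of the 43 genes (rows, grouped by role) in each of the 8 libraries (columns), and white cells have no peak. The 9 class I genes are filled in all 8 columns, whereas Ciita, Oasl2, Ifit3, Ifitm1 and H2-Aa are white throughout.

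The length of the peak lists moved with these counts. The lists held 21763 and 15641 peaks at 0h, 17328 and 18074 in 6h cells, 21903 and 19728 in 12h cells, and 15109 and 14826 in 24h cells. The second 0h library stood apart, with a median peak width of 282 bp, against 370 to 460 bp in the other 7. Its median summit held a pile-up of 10 overlapping tags, against 14 to 16 in the others. The lowest local background recovered at its peaks, divided by its narrowest peak width, was 1.50 tags per kb. In the other 7 this quotient was 2.23 to 2.67 tags per kb. The quotient was inferred from the peak lists and is not a measured background or depth. Members with a peak numbered 34 and 27 of 43 in 0h cells, 28 and 27 in 6h cells, 32 and 31 in 12h cells, and 28 and 28 in 24h cells. Shares of all protein-coding genes were 63.2% and 56.0% in 0h cells, 58.9% and 59.8% in 6h cells, 63.0% and 61.3% in 12h cells, and 56.5% in both 24h libraries. The higher counts fell in the longest lists, for the members and for all genes. With every list cut to the length of the shortest, members with a peak numbered 24 to 29 up to 12h and 28 in both 24h libraries, and the share of all genes was 55.0% to 56.7%.

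Peaks over the starts themselves were present in 16 and 12 of the 35 genes at 0h, 14 and 14 in 6h cells, 15 and 13 in 12h cells, and 13 and 10 in 24h cells. Over all genes with a window, the shares were 45.4% and 38.3% in 0h cells, 42.4% and 43.2% in 6h cells, 45.2% and 44.3% in 12h cells, and 41.0% and 41.6% in 24h cells. At equal list length the second 24h library had 10 members with a start peak and the other 7 libraries had 11 to 14, while the share over all genes lay between 37.9% and 42.0%.

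**Figure D2:**
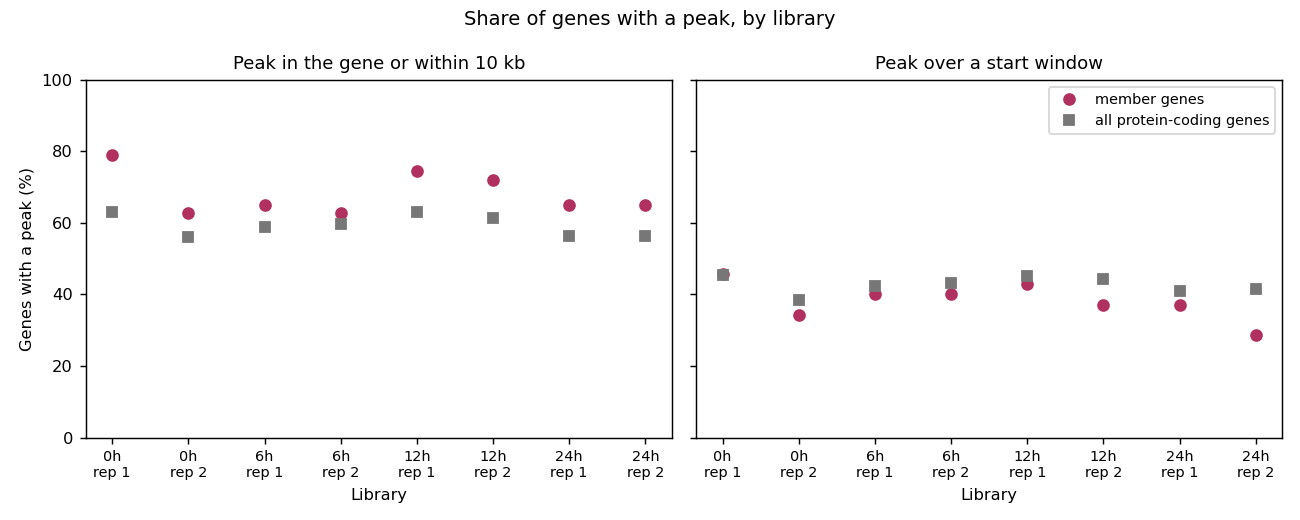
Points give the percentage of genes with a peak within 10 kb (left) and over a start window (right) in each of the 8 libraries, with the member genes as circles and all protein-coding genes as squares. Within 10 kb the members lie at 62.8% to 79.1% and are highest in the first 0h library, and at starts the second 24h library is lowest with 10 of 35 members.

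Marker genes of several lineages were counted in the same way. Of 13 genes of myeloid progenitors and this leukaemia, 9 had a peak within 10 kb in all 8 libraries and 10 to 13 had one in each library. Of 6 B-cell genes 1 to 4 had a peak in each library, of 6 T-cell genes 2 to 5, of 6 dendritic-cell genes 3 or 4, of 5 erythroid genes 2, and of 6 genes of stroma and endothelium 1 to 5. Among all protein-coding genes, 56.0% to 63.2% had such a peak in each library and 48.8% in all 8. Flt3 stood in both the leukaemia and the dendritic-cell list. Counts from lists this short, beside such shares, do not settle sorting or lineage. Other cells express many of the 43 genes, and the part of such cells in the results was not tested. In a bulk map, fewer cells with an open site and a lower openness in each cell cannot be told apart.

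Over their starts, 9 of the 35 genes (25.7%) had a peak in all 8 libraries, against 33.7% of genes with a window. They were Stat2, Adar, Bst2, Trim25, Psmb9, Tap1, B2m, H2-K1 and H2-D1. A further 10 genes (28.6%) had a start peak in 1 to 7 libraries, and 16 (45.7%) had none, against 50.3% of genes with a window. ISRE letters were present in 3 of the 9 genes with a start peak in every library and in 9 of the 16 genes with none. Over all genes the corresponding shares were 3.24% of those with a start peak in every library and 4.48% of those with none. Klf-type letters were present in 5 of the 9 and 3 of the 16, against 53.2% and 20.7% of all genes in the same classes.

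**Figure D3:**
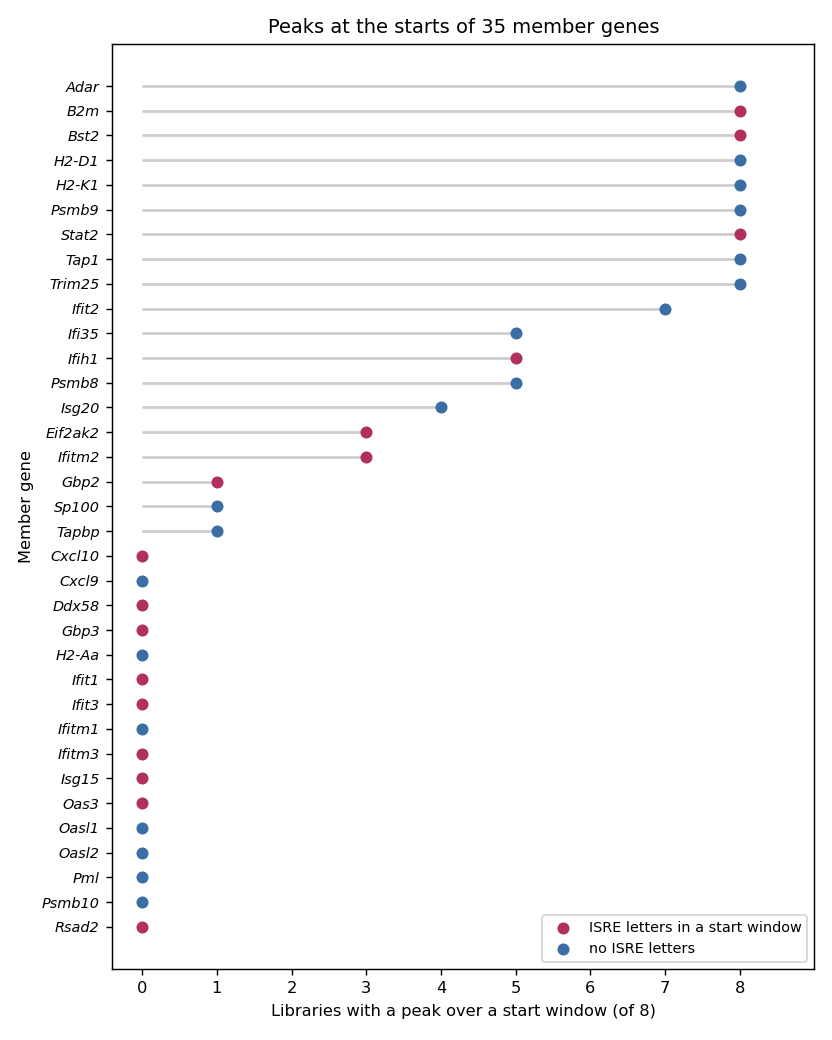
Horizontal position gives the number of libraries, of 8, with a peak over a start window of each of the 35 genes, and colour marks whether ISRE letters are in a window. Of the 16 genes at 0 libraries 9 carry ISRE letters, and of the 9 genes at 8 libraries 3 do (Stat2, B2m and Bst2).

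Regions that appeared or disappeared were called by presence. A region was called gained where peaks were present in both libraries of a later time and absent from both 0h libraries, and lost in the reverse case. At 6h 0 of the 80 member regions were gained, against 1.85% of all regions, and 1 was lost (1.25%, against 2.34% of all). At 12h 1 was gained (1.25%, against 4.03% of all) and 0 were lost, against 1.45% of all. At 24h 2 were gained (2.5%, against 1.12% of all) and 2 were lost (2.5%, against 4.43% of all). With 2 libraries against 2, no permutation test can fall below 0.05, so none was made.

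These counts moved with single libraries. Without the second 0h library, 15 member regions would be lost at 6h, 13 in 12h cells and 20 in 24h cells, against 15.7%, 12.1% and 21% of all regions, and without the first 0h library 4, 4 and 6 would be lost (6.35%, 4.73% and 9.39% of all). Without the first 0h library, too, 4 would be gained at 6h, 10 in 12h cells and 7 in 24h cells (7.77%, 12.7% and 5.33% of all). Without the first 6h library 5 would be gained and 4 lost at 6h (7.34% and 4.6% of all), and without the second 2 would be gained (6.22% of all). Without the first 12h library 8 member regions would be gained at 12h (9.59% of all), and 12 without the second (12.9% of all), and 1 would be lost in either case (3.61% and 2.61% of all). Without the first 24h library 6 would be gained and 4 lost at 24h (3.99% and 7.22% of all). With all lists cut to equal length, the Isg20 and Ifitm3 regions were still gained at 24h and the Eif2ak2 and Tap2 regions still lost, whereas the gain beside Ifi35 in 12h cells was not called. At a −log10 q of at least 5 neither gain at 24h was called, and with at least 50% of a region covered the Isg20 gain was not.

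Among the regulators, Stat2, which encodes a transcription factor of type I interferon signalling, had a peak over its start in every library (chr10:128270242-128270881). Its fold enrichment, the authors' ratio of summit pile-up to local background with 1 added to each, was 11.7 and 10.3 in 0h cells, 12.5 and 12.8 in 6h cells, 9.90 and 13.7 in 12h cells, and 11.8 and 12.1 in 24h cells. Both 6h values and both 24h values were above both 0h values, and the 12h values lay on either side of them. Folds of separate lists share no scale, so each fold was also placed by its percentile within its own list. On that scale the Stat2 start stood at 85.6 and 77.7 in 0h cells and at 87.1 and 88.3 in 6h cells. It stood at 67.3 and 93.7 in 12h cells and at 82.3 and 81.8 in 24h cells. Both 24h percentiles thus lay between the 0h ones, unlike the folds. By rank among the regions called in all 8 libraries, the 24h percentiles were 71.4 and 71.2, above 67.3 and 63.4 in 0h cells.

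Sp100, which encodes a component of PML nuclear bodies, held the strongest region of the regulators, inside the gene and 53.7 kb from its start (chr1:85703384-85704133). The fold there was 13.6 and 10.4 in 0h cells, 13.9 and 12.1 in 6h cells, 13.9 and 13.0 in 12h cells, and 13.0 and 14.3 in 24h cells. Its percentile averaged 90.0 over the 8 lists. The start of Sp100 itself had a peak in 1 library. Pml, which builds the same nuclear bodies, had no start peak in any library, and its region in all 8 lay over the start of the neighbouring gene Stoml1.

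Nlrc5, the transactivator of MHC class I genes, had no region in all 8 libraries, but at least 1 of its 4 regions was called in each. A region inside the gene (chr8:94492115-94492638) was called in 7 libraries, all but the second at 0h. The fold there was 10.5 in the first 0h library, 6.17 and 7.39 in 6h cells, 7.94 and 7.44 in 12h cells, and 5.17 and 7.11 in 24h cells. The highest fold was thus at 0h. Ciita, the coactivator of class II genes, had no peak in any library.

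Of the RNA sensors and editors, Adar, which converts adenosine to inosine in double-stranded RNA, had a start peak in all 8 libraries (chr3:89730400-89731208). The fold at that start was 7.34 and 8.74 in 0h cells, 9.01 and 7.59 in 6h cells, 8.16 and 10.7 in 12h cells, and 6.91 and 7.64 in 24h cells, and each later time overlapped 0h. The highest mean percentile of the sensors, 65.2, belonged to a region inside Oas3, 1.86 kb from its start (chr5:120775436-120775971). Oas3 makes the oligoadenylate that activates RNase L. There the fold was 9.70 and 9.12 in 0h cells, 9.47 and 11.8 in 6h cells, 8.27 and 10.6 in 12h cells, and 8.08 and 10.4 in 24h cells. The second library was above the first at 6h, 12h and 24h and below it at 0h.

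Ifih1, which encodes the long double-stranded RNA sensor MDA5, had a region at its 5′ end (chr2:62645636-62646292) in 7 libraries, all but the second at 24h. The peak itself reached the start window in 5 of them, both at 0h, both at 6h and the first at 24h. The fold was 7.02 and 7.58 in 0h cells, 5.31 and 4.99 in 6h cells, 8.33 and 7.72 in 12h cells, and 7.14 in the first 24h library. Both 6h values were below all others. Ddx58, which encodes the RNA sensor RIG-I, had 1 region, called in 2 libraries, and no start peak in any. Oasl1, a paralogue of the oligoadenylate synthetases, had no start peak and a region 4.28 kb outside the gene in 6 libraries, with folds of 6.86 to 10.1, while Oas2 had a peak in 1 library only.

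Eif2ak2, which encodes the double-stranded RNA-activated kinase PKR, had the only start of the group that was called lost. The Eif2ak2 start region (chr17:78882198-78882955) had a peak in both 0h libraries, with pile-ups of 13 (95% Poisson interval 6.92 to 22.2) and 8 (3.45 to 15.8) and folds of 8.09 and 6.89. No 6h or 24h library had a peak there, and neither did the first at 12h. The second 12h library had one with a pile-up of 7 (2.81 to 14.4) and a fold of 5.51. The region was thus lost at 6h and at 24h and was not lost at 12h. This call depended on the rule: with a peak required to cover at least 50% of the region it was lost at no time, and at a −log10 q of at least 5 or at equal list length it was lost at 12h as well.

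The Eif2ak2 start is given in 2 stretches, 1 before it (chr17:78882573-78882672, minus strand) with the Klf-type letters in capitals and 1 of 30 bases after it (chr17:78882535-78882564, minus strand) with the ISRE letters in capitals.
Eif2ak2 before the start: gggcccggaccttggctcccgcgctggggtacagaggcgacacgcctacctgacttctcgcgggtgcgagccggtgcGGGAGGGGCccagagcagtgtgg
Eif2ak2 after the start: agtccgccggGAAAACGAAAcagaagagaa

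Among the antiviral effectors, Bst2 and Trim25 had a start peak in every library. Bst2 encodes tetherin, which holds budding virus at the cell surface. The fold at its start (chr8:71537218-71537800) was 8.50 and 8.17 in 0h cells, 8.45 and 6.02 in 6h cells, 7.51 and 10.9 in 12h cells, and 8.40 and 8.74 in 24h cells. The lowest and the highest value were at 6h and 12h, each beside a replicate near the other times. The strongest region of the effectors lay 5.37 kb beyond Bst2, over the start of its neighbour Mvb12a (chr8:71542633-71543245), at a mean percentile of 95.4. The fold there was 13.9 and 12.7 in 0h cells, 14.5 and 15.3 in 6h cells, 14.4 and 13.8 in 12h cells, and 13.6 and 18.3 in 24h cells, and the second 24h library was the highest.

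Trim25, the ubiquitin ligase that modifies RIG-I, had folds at its start (chr11:88999093-88999822) of 11.5 and 6.37 in 0h cells, 8.74 and 12.9 in 6h cells, 11.4 and 9.30 in 12h cells, and 8.05 and 11.6 in 24h cells. The 0h values alone spanned most of the range.

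Several effectors had a start peak in part of the series. Ifit2, one of the RNA-binding proteins that restrain viral translation, had a peak at its start (chr19:34550568-34551114) in 7 libraries, all but the second at 24h. The fold was 8.18 and 4.64 in 0h cells, 8.14 and 6.42 in 6h cells, 8.31 and 8.88 in 12h cells, and 7.34 in the first 24h library. Ifit2 differed in this from its neighbours Ifit1 and Ifit3, whose starts had no peak in any library, although both hold ISRE letters and the Ifit2 windows hold none. The start of Ifi35, an interferon-induced leucine zipper protein gene, had a peak (chr11:101448242-101448718) in the first 0h library, both 6h and both 12h libraries, and in neither 24h library. Its fold was 6.55 in 0h cells, 5.95 and 5.81 in 6h cells, and 7.25 and 6.53 in 12h cells. Since the second 0h library had no peak there, the start of Ifi35 was not called lost at 24h. The region of Ifi35 called in all 8 libraries lay 6.17 kb outside the gene, over the start of the neighbour Rpl27. Its percentiles within the lists, 80.9 to 99.2, were the highest of Ifi35.

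Isg20, which encodes an RNA exonuclease, was the only member with a gained start. Its start region (chr7:78913535-78914146) had no peak in either 0h library. The second 6h library had a pile-up of 8 and the first 12h library a pile-up of 18, while the other library at each of these times had no peak. At 24h both libraries had one, with pile-ups of 9 and 9 (95% Poisson interval 4.12 to 17.1 each) and folds of 5.18 and 5.94. In the second 0h library the nearest peak lay 866 bp away. A second region of Isg20, 9.81 kb before its start (chr7:78902980-78903918), was called in all 8 libraries with folds between 8.06 and 11.4.

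Ifitm3, which blocks virus entry at endosomes, had a region called gained at 24h 6.13 kb outside the gene (chr7:141016717-141017017), 17 bp from the start of Ifitm6. Neither 0h library had a peak there. The first 6h library had a pile-up of 11 and the second 12h library a pile-up of 16. Both 24h libraries had a peak, with pile-ups of 8 and 14 and folds of 5.57 and 8.39. The start of Ifitm3 had no peak in any library.

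Beyond Ifi35, a region 6.49 kb outside the gene and 1.01 kb from the start of Vat1 (chr11:101464967-101465436) was called gained at 12h. No 0h library had a peak there, and the pile-up was 15 in the second 6h library, 22 and 14 in 12h cells, and 11 in the second 24h library. The first 0h library had a peak 356 bp away, and the first 24h library had one 56 bp away. This gain therefore lies beside a peak called in 1 of the 0h libraries.

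Isg15, the ubiquitin-like modifier, had no peak over its start in any library. Its region in all 8 libraries lay over the start of the neighbouring gene Agrn (chr4:156197108-156198186), 1.47 kb outside Isg15. Usp18, the protease that removes ISG15, had a region 1.78 kb outside the gene (chr6:121272066-121272802) in 6 libraries, with folds of 6.36 to 8.92 in 5 later libraries and of 9.71 in the first 0h library. Gbp3, a guanylate-binding GTPase gene, had a region 451 bp past its nearest start (chr3:142560458-142561167) in 7 libraries, all but the second at 6h, with folds of 7.32 to 11.9. Ifitm2, a relative of Ifitm3, had a start peak in 3 libraries, the first at 0h, at 12h and at 24h, with folds of 6.11, 6.10 and 7.89. Gbp2, a relative of Gbp3, had its only peak in the first 12h library, at its start and with a fold of 5.65. Peaks within 10 kb were found in 3 libraries for Rsad2, which encodes viperin, in 2 for Ifit1 and in 2 for Mx2, which the RefSeq table lists as a transcribed pseudogene.

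Both chemokines, which draw CXCR3-bearing lymphocytes, had no start peak in any library. Cxcl10 had 1 peak within 10 kb, in the first 0h library. Cxcl9 had a region 2.62 kb outside the gene (chr5:92318258-92318857) in 7 libraries, all but the second at 0h. The fold was 10.4 in the first 0h library, 6.44 and 6.48 in 6h cells, 8.20 and 9.29 in 12h cells, and 9.14 and 6.22 in 24h cells.

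The class I pathway had peaks in every library in or within 10 kb of all 9 genes. Psmb9, an immunoproteasome subunit gene, and Tap1, a subunit gene of the peptide transporter, start 226 bp apart on opposite strands, and 1 region covers both starts (chr17:34186894-34187915). The fold there was 10.8 and 10.1 in 0h cells, 9.05 and 16.5 in 6h cells, 10.2 and 13.1 in 12h cells, and 9.14 and 11.5 in 24h cells, the highest mean percentile of the pathway (76.4). The second library was above the first at 6h, 12h and 24h and below it at 0h. Because 1 peak serves both starts, Psmb9 and Tap1 are not independent here. The 225 bases between their starts (chr17:34187331-34187555, plus strand) hold Klf-type letters at 2 places, in capitals, and no ISRE or GAS letters.
Psmb9 to Tap1: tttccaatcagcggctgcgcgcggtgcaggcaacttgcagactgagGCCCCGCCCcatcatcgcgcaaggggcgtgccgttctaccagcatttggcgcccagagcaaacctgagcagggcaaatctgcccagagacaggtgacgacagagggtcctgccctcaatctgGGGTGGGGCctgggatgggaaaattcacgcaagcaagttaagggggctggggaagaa

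B2m, the light chain of class I molecules, had folds at its start (chr2:122147460-122148208) of 10.1 and 7.66 in 0h cells, 7.55 and 11.4 in 6h cells, 10.5 and 9.21 in 12h cells, and 9.76 and 10.0 in 24h cells. H2-K1, a classical heavy chain gene, had folds at its start (chr17:33999882-34000761) of 10.4 and 9.91 in 0h cells, 10.1 and 10.2 in 6h cells, 8.73 and 8.17 in 12h cells, and 11.0 and 8.89 in 24h cells. H2-D1, the other classical heavy chain, had 7.76 and 8.74 in 0h cells, 7.92 and 10.3 in 6h cells, 8.19 and 11.0 in 12h cells, and 7.39 and 10.8 in 24h cells at its start (chr17:35262708-35263657). For H2-K1 both 12h folds were below both 0h folds, and for B2m and H2-D1 each later time overlapped 0h or spanned it. Near-identical copies of these heavy chain genes, like those of the Ifit, Ifitm and Gbp families, share sequence, and how reads with several matches were placed is not given in the sources used here.

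Tap2, the partner of Tap1 in the peptide transporter, had a region inside the gene (chr17:34210535-34211077) that was called lost at 24h, and its summit also lay within 10 kb of Psmb8. The pile-up was 16 and 10 in 0h cells, 11 and 12 in 6h cells, and 18 and 12 in 12h cells, with folds of 5.94 to 7.75 over these 6 libraries. Neither 24h library had a peak, and the nearest peaks of those libraries were 12621 and 12761 bp away.

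**Figure D4:**
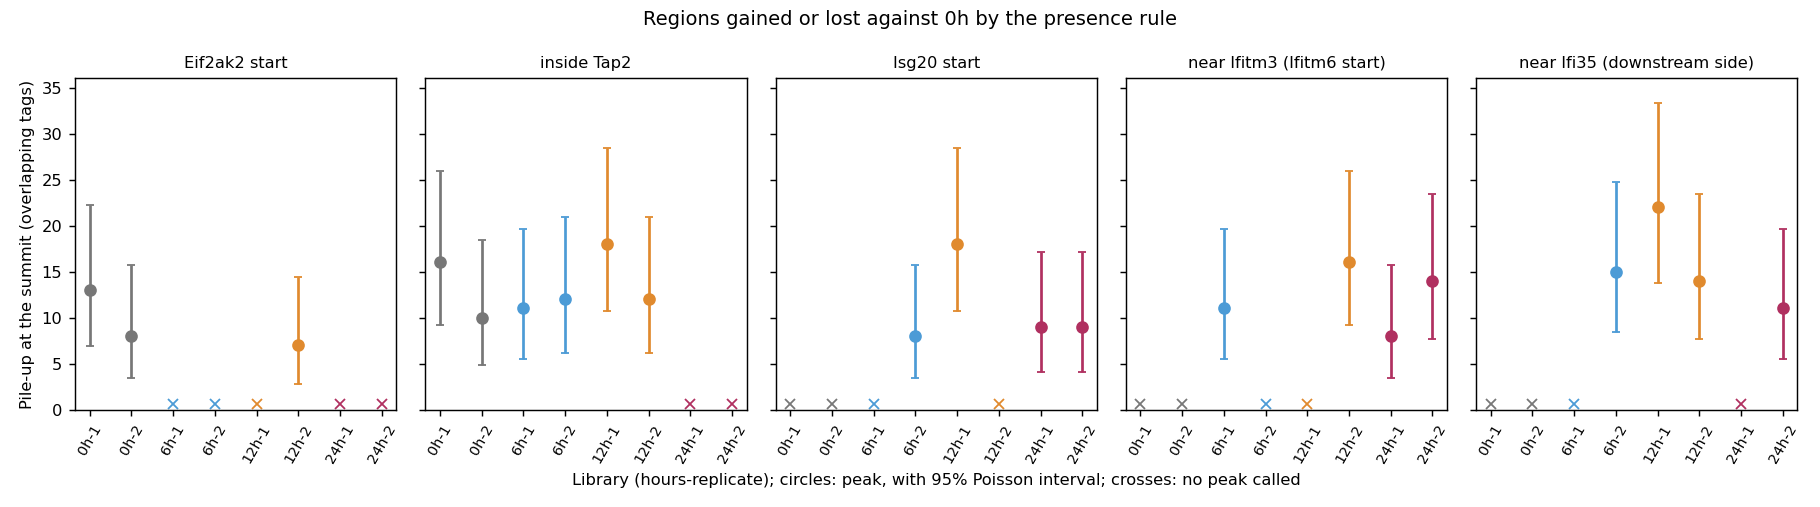
Circles give the summit pile-up, with its 95% Poisson interval (counting error only), in each library that had a peak at the 5 member regions called gained or lost, and crosses mark libraries without a called peak. Both 24h libraries lack the Eif2ak2 and Tap2 peaks and both have the Isg20 and Ifitm3 peaks, and every pile-up shown is at most 22.

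Psmb8, another immunoproteasome subunit gene, had a region at its 5′ end (chr17:34197401-34198414) in all 8 libraries, and the peak itself reached the start window in 5 of them, the first at 0h and both at 6h and 12h. Among the 9170 regions called in all 8 libraries, its fold ranked at percentile 48.5 and 19.3 in 0h cells, 4.43 and 3.64 in 6h cells, 15.3 and 14.0 in 12h cells, and 11.5 and 1.17 in 24h cells. All 6 later ranks lay below both 0h ranks, and the first 0h library was far above the second. The fold itself was 10.5 and 7.01 in 0h cells and 6.13 and 6.04 in 6h cells. It was 8.32 and 7.89 in 12h cells, and 6.88 and 4.96 in 24h cells. By fold, both 12h libraries thus lay above the second 0h library. The same held by percentile within each list, with 51.2 and 46.0 in 12h cells against 41.0 in the second 0h library. Tapbp, which encodes tapasin, the bridge between TAP and class I, had its regions in all 8 libraries over the starts of the neighbours Zbtb22 and Rgl2. Psmb10, the remaining immunoproteasome subunit gene, had no start peak in any library and a region 1.23 kb inside the gene in all 8, with folds of 5.01 to 10.3.

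The class II genes were sparse. H2-Aa had no peak in any library. H2-Ab1 had a region inside the gene (chr17:34264212-34265318) in 4 libraries, with folds of 5.00 in the first 0h library, 4.51 in the second at 6h, 5.52 in the second at 12h and 7.49 in the second at 24h. Cd74, the invariant chain gene, had a region in 3 libraries, with folds of 5.85 in the first 0h library and 6.99 and 5.88 in 12h cells. The H2-Ab1 region was thus called in 1 library at each time, and the Cd74 region in both libraries at 12h only.

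The change of strength with time was tested on the 19 member regions called in all 8 libraries. Of these merged regions, 9 lay over the start of a member, 6 over the start of another gene only, and 4 over no start. The test was limma on normal scores of the rank of fold among the 9170 regions called in all libraries, so a difference of 1 is 1 SD of that ranking. In none of the comparisons of 6h, 12h and 24h with 0h did limma call any of the 9170 regions at an adjusted p under 0.05 (0% at each time), and so no member was called. At an unadjusted p under 0.05 there were 452 regions at 6h (4.93%), 507 in 12h cells (5.53%) and 541 in 24h cells (5.9%), with 1 of the 19 member regions at each time.

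Member differences were higher than at 0h in 10 regions and lower in 9 in 6h cells, higher in 11 and lower in 8 in 12h cells, and higher in 10 and lower in 9 in 24h cells. Their medians were 0.02, 0.09 and 0.01, against 0.00, -0.02 and 0.00 over all 9170 regions, and the median SE of a member difference was 0.53. With errors of this size, a p that misses the threshold does not show that a region kept its rank. The Psmb8 start region had the lowest member p at 6h (difference -1.30, unadjusted p = 0.0245, adjusted p = 0.963 by limma) and at 24h (difference -1.28, unadjusted p = 0.0260, adjusted p = 0.843 by limma). Leaving out 1 library at a time gave -0.88 to -1.71 in 6h cells and -0.75 to -1.81 in 24h cells. The Isg15 neighbour region over the Agrn start had the lowest member p at 12h (difference 1.37, unadjusted p = 0.0182, adjusted p = 0.870 by limma). Its percentiles among shared regions were 59.8 and 14.9 in 0h cells, 69.3 and 63.8 in 6h cells, 82.0 and 85.0 in 12h cells, and 36.0 and 49.7 in 24h cells, and its 12h difference was 0.73 to 2.02 with 1 library left out.

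**Figure D5:**
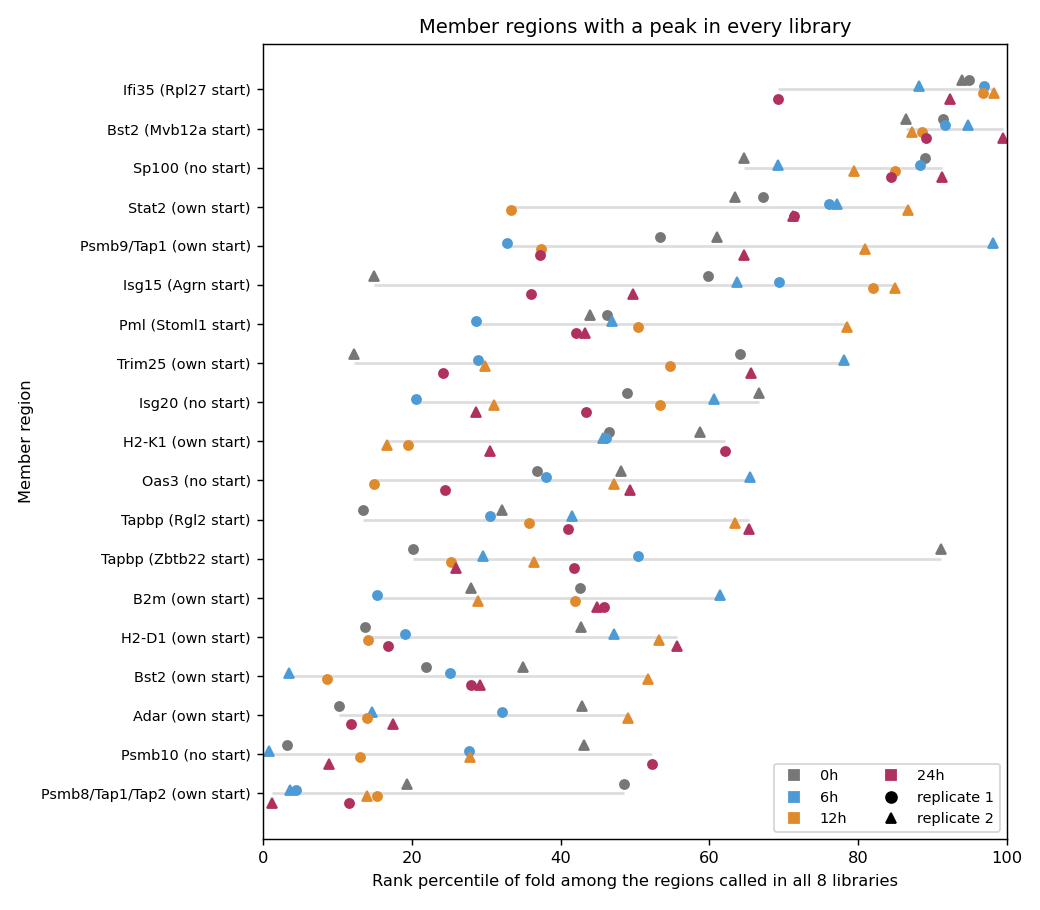
Each row is 1 of the 19 member regions called in all 8 libraries, and points give the percentile of its fold among the 9170 regions called in all libraries, with colour for the time and shape for the replicate. In 15 of the 19 rows the time means differ by less than the largest gap between replicates of 1 time.

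The size of the replicate gaps can be read directly. In 4 of the 19 regions (over Tapbp's neighbour Rgl2, H2-K1, Psmb8 and Isg15's neighbour Agrn) the range of the 4 time means exceeded the largest gap between the libraries of 1 time. The same held in 27.5% of the 9170 regions. The median of that largest gap was 39.1 percentile points in the member regions and 32.1 over all.

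Other genes of the pathway, 54 that are not members, had 111 regions, of which 29 (26.1%) were called in all 8 libraries. In all 8 libraries 26 of the 54 genes (48.1%) had a peak. By time, 2 of their regions were gained and 2 lost at 6h (1.8% each, against 1.85% and 2.34% of all regions). At 12h 6 were gained (5.41%, against 4.03% of all) and 2 lost (1.8%, against 1.45% of all). At 24h 2 were gained (1.8%, against 1.12% of all) and 4 lost (3.6%, against 4.43% of all). Some of these regions are described here. Of the others, a region of Ifi27 was gained at 6h, and 1 of Dhx58 was lost at 6h and 12h. Regions of Tbk1 and Tlr9 and a further region of Ifnar2 were gained at 12h only. The alternative rules were not applied to the regions of the 54 genes. Lgals9, which encodes galectin-9, had a start region with a peak in all 6 later libraries and in neither 0h library. Its fold was 7.68 and 5.54 in 6h cells, 7.33 and 6.03 in 12h cells, and 7.73 and 6.02 in 24h cells. The start of the class Ib gene H2-Q7 had a peak in no later library and in both 0h libraries, with folds of 6.88 and 5.84.

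The start of Herc6, the mouse ligase gene for ISG15, had a peak in all 6 libraries up to 12h, with folds of 5.91 to 8.28, and in neither 24h library. That is the pattern of the Tap2 region. A region inside Ifnar2, which encodes a chain of the type I interferon receptor, had no peak at 0h or 6h and had folds of 7.05 and 6.37 in 12h cells and 6.35 and 5.10 in 24h cells. Jak1, the kinase of both interferon receptors, had a region with folds of 9.82 and 8.58 in 0h cells, 6.20 in the second 6h library, and 7.53 and 5.41 in 12h cells, and without a peak at 24h. A region at position -93 from the start of Irgm2 was likewise lost at 24h, and by the 10 kb rule it also counted for Igtp. Both genes encode GTPases induced by interferon gamma. The fold there was 4.96 and 3.85 in 0h cells, 4.28 in the second 6h library and 8.23 in the first 12h library. The first 6h and the second 12h library had no peak.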

How the data were processed

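ATAC-seq libraries of 8 samples were deposited as 1 peak list each, so peaks were called per sample. The submitters' processing notes name BWA, SAMtools and MACS2 and the mm10 build, without roles, and the sources used here give no version or setting for them. Each peak has a fold from the authors, a linear ratio of summit pile-up over local background that adds 1 to both. It also has a p-value and a q-value, deposited as −log10, and no deposited −log10 q was below 2.00. The integer score was deposited with each peak and was not used. Summit positions, per the deposited lists, placed peaks at genes.

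From these, whole-number pile-ups were recovered from fold and −log10 p for 99.8% to 99.9% of peaks (tolerance 0.001). Intervals on pile-ups are exact Poisson intervals for counting error only, and sequencing depth is unknown. Peaks were merged into regions at 1 bp of overlap. Genes came from the RefSeq table, and start windows of 300 bases from RefSeq (GRCm38.p6). The windows matched 35 members by symbol, and H2-Ab1, Oas2, Nlrc5, Tap2, Ciita, Cd74, Mx2 and Usp18 had none. Ranks of fold among the regions called in all 8 libraries were turned into normal scores and fitted with limma 3.58.1 (R 4.3.3), 4 times in 1 fit, with Benjamini-Hochberg adjustment over all 9170 regions. Other steps used Python 3.11.15 with pandas 2.3.3, numpy 2.4.6 and scipy 1.17.1.

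The members and lists were chosen with earlier results of these data known. Values in every library are given for each member region gained, lost or called by limma and for the strongest region of each role, members without a peak are named, and further member regions were added to show each role. Alternatives were a −log10 q minimum of 5, equally long lists, a cover of at least 50% of a region, a distance of 2 kb, a rank of −log10 p, quantile-normalized log2 fold, a replicate block and leaving out each library. Replicate numbers in the labels are shared by the times, and deviations of same-numbered libraries had correlations of -0.03 to 0.01, so the numbers were not taken to pair samples.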

Additional observations from a re-analysis of the deposited data

How the results depend on the processing

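The strength test by limma called 0 of the regions at 6h, 12h and 24h under every alternative, with 9170 regions tested, or 8088 at a −log10 q of at least 5. With the replicate block it also called 0, and 433, 485 and 514 regions had an unadjusted p under 0.05 at 6h, 12h and 24h. The number of members with a peak in all 8 libraries, 20 as reported, was 15 at a −log10 q of at least 5, 18 at equal list length, 15 within 2 kb, and 20 to 22 without 1 library.

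Presence calls moved more. At a −log10 q of at least 5, 2 of 58 member regions were lost at 6h (2.18% of all regions) and 0 gained at 12h (4.79%). At that minimum 1 was lost at 12h (1.19% of all) and 0 were gained at 24h (1.29%). At equal list length, 2 of 54 were lost at 6h (2.36% of all), 0 gained at 12h (2.69%) and 1 lost at 12h (2.31%). Under both settings the 2 lost at 6h were regions of Eif2ak2 and Ifih1. With at least 50% of a region covered, 0 of 80 were lost at 6h (2.1% of all) and 1 gained at 24h (1.16%). Under that rule the 2 lost at 24h (3.3% of all) were the H2-K1 region and the region inside Tap2, and Eif2ak2 was not among them. Within 2 kb, 0 of 50 were gained at 12h (4.03% of all) and 1 at 24h (1.12%). Leaving out 1 library gave 0 to 5 of 80 gained at 6h (2.85% to 7.77% of all) and 1 to 15 lost (4.6% to 15.7%). At 12h it gave 1 to 12 gained (5.79% to 12.9% of all) and 1 to 13 lost (2.61% to 12.1%). At 24h it gave 2 to 7 gained (1.81% to 5.33% of all) and 3 to 20 lost (7.05% to 21%). The cause of these moves was not tested, although a rule that asks for a peak in fewer libraries is met more often by construction. Pile-ups of 7 to 22 tags at the called regions limit what presence in a list can show.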

Other observations

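By rank of fold among the regions called in all 8 libraries, replicate number 2 stood above replicate number 1 at all 4 times in 4 of the 19 member regions, and in 557 of 9170 regions overall (6.07%). The 4 regions were those of H2-D1, of Psmb9 and Tap1, of Oas3, and of Tapbp at 1 of its neighbours. For Psmb9 and Tap1 and for Oas3 the order at 0h is the reverse by fold itself, which is not on 1 scale between lists. The reverse order held in 1 member region, that of Psmb8, and in 516 regions overall (5.63%). This was seen after the values were known, it was not tested, and the labels do not say what the numbers stand for. For H2-D1 the rank percentiles at the 4 times, in their order, were 42.8, 47.2, 53.2 and 55.7 for replicate 2, and 13.7, 19.0, 14.1 and 16.8 for replicate 1.

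Regions found in a single library were set beside all such regions, without a test. Of 31 such member regions, 9 (29.0%) were in the first 0h library, against 29.1% of all such regions, and 9 (29.0%) in the first 12h library, against 21.7% of all. The second 12h library had 6 (19.4%, against 14.0% of all) and the second 0h library 3 (9.68%, against 8.82%). The first 6h library had 1 (3.23%, against 8.01% of all) and the second 2 (6.45%, against 10.4%). The first 24h library had 0 of the 31, against 3.99% of all, and the second had 1 (3.23%, against 4.01%).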
